A study of Mus musculus with 4 samples.

Results

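Mouse chromosome 8 was described in liver tumours of 4 FAH-/- Trp53-/- mice by array comparative genomic hybridisation, which sets the copy number of tumour DNA against that of normal DNA on the same probes. Its members were all 8152 probes that the scanner files place on chromosome 8 in mm9, of 170305 probes on the array and 161460 on the 19 autosomes. They run from chr8:3130823 to chr8:131734335 at a median spacing of 11.1 kb. A gene name was given for 5007 of them, which gave 921 names, and 3145 probes (38.6%) carried only their position. The 4 tumours, numbered 239, 240, 244 and 252, came from mice labelled male that lacked both Fah, whose enzyme completes the breakdown of tyrosine, and Trp53, the gene of the p53 tumour suppressor. Their full dose of NTBC, an inhibitor of tyrosine breakdown upstream of Fah, was 7.5 mg/L of drinking water, and it was cut to 2.5% of that dose for 6 months. The normal DNA was pooled from the livers of 3 FAH+/+ Trp53+/+ male littermates. The labels give this pool as the Cy3 sample of every array and the tumour as the Cy5 sample.

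Each value is a log2 ratio of tumour over pool, centred on the array's autosomal median. In diploid cells, a gain of a single copy in every cell would give 0.58 and a loss of a single copy -1, and normal cells within a tumour or a higher ploidy would shrink both. Neither the share of tumour cells nor their ploidy was measured. The pool is 1 control sample, so the spread among normal livers enters no test, and with 4 arrays an exact sign-flip test cannot go below p = 0.125. No dyes were swapped. Whether each animal gave 1 tumour or was sampled more than once is not stated, so the spread is that between these 4 samples. The probes of the deleted genes gave no check of the genotype: the 2 Fah probes averaged 0.30, 0.02, -0.19 and 0.05 in tumours 239, 240, 244 and 252 and the 2 Trp53 probes 0.09, 0.08, 0.06 and 0.07. Which exons were deleted is not stated in the labels.

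Chromosome copy number changes alter the dose of all genes on a chromosome or an arm together, and liver cancers carry many of them. Mouse chromosome 8 is a patchwork of blocks whose genes lie on several human chromosomes, among them the human arms 8p, 4q, 13q and 16q, which are recurrently lost in human liver cancer, and 1q, which is recurrently gained. It also holds the carboxylesterase genes (Ces), beta-defensins (Defb) and the tyrosine aminotransferase gene Tat, the first enzyme of the pathway that Fah ends.

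A whole-chromosome view showed tumour 244 apart from the other three. The mean over chromosome 8 was 0.33 in tumour 244, against -0.09, -0.03 and -0.09 in tumours 239, 240 and 252. In tumour 244, 83.4% of chromosome 8 probes lay above 0, against 48.2% of the probes on its other autosomes. In tumours 239, 240 and 252 the shares on chromosome 8 were 39.4%, 47.0% and 40.5%, against 50.6%, 50.2% and 50.5% on the other autosomes. Centring on the median holds the shares on the other autosomes near an even split and does not show their levels. The other autosomes of tumour 244 were not at one level. Its chromosomes 4, 6, 7, 9, 10, 12 and 13 lay between -0.39 and -0.23. Chromosomes 1, 15, 16 and 18 lay at 0.21, 0.35, 0.30 and 0.34 in that tumour. If the centre of each array stands for 2 copies, the 4 means amount to 1.88, 1.96, 2.52 and 1.89 copies per cell on average over the sample in tumours 239, 240, 244 and 252. Centred on the most frequent level instead of the median, tumour 244 lay at 0.23, or 2.34 copies.

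Over the 4 tumours the chromosome averaged 0.03 ± 0.20 (SD, n = 4; exact two-sided sign-flip permutation test, p = 1.00), with 1 of 4 tumours above 0. Without tumour 244 the mean was -0.07, and with normexp background correction -0.01, so it has no settled sign. Chromosome 8 minus the other autosomes was 0.36 in tumour 244 and -0.06, -0.02 and -0.08 in tumours 239, 240 and 252. Its mean was 0.05 ± 0.21 (SD, n = 4; exact p = 1.00), and -0.06 without tumour 244.

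Chromosome 15 ranked first of the 19 autosomes in every tumour, so any other autosome lay below it and no test of that direction is given. Chromosome 8 minus chromosome 15 was -0.32, -0.17, -0.01 and -0.36 in tumours 239, 240, 244 and 252 (mean -0.22 ± 0.16, SD, n = 4). In tumour 244 the gap was the smallest, and chromosome 8 ranked 3 of 19 autosomes, after chromosomes 15 and 18. In tumours 239, 240 and 252 it ranked 18, 12 and 17. Against the mean of chromosomes 16 and 18 the differences were -0.08, -0.06, 0.01 and -0.09 (mean -0.05 ± 0.05, SD, n = 4; exact two-sided sign-flip permutation p = 0.25, adjusted p = 0.50 over 4 such differences). The 4 differences adjusted together include that to chromosome 15, whose direction was fixed by its rank, so this adjusted value leans on it. Against chromosomes 2, 5 and 11 they were -0.10, -0.07, 0.24 and -0.11, with a mean of -0.01 ± 0.17 (SD, n = 4; exact p = 1.00, adjusted p = 1.00). That mean turned to 0.02, 0.01 and 0.03 without tumours 239, 240 and 252 in turn and to -0.09 without tumour 244.

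**Figure D1:**
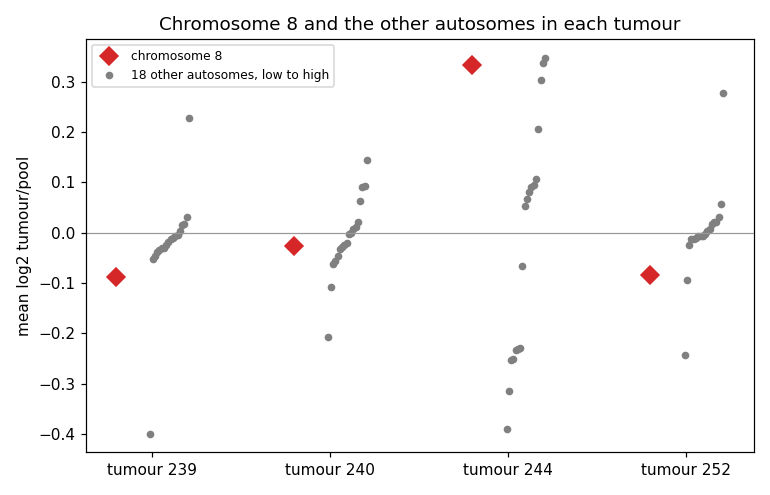
Mean log2 ratio of tumour over pool (vertical axis) of chromosome 8 (red diamonds) and of the 18 other autosomes (grey points, ordered low to high) in each tumour. Chromosome 8 lies at 0.33 in tumour 244, among its highest autosomes, and at -0.09, -0.03 and -0.09 in tumours 239, 240 and 252.

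Segmentation, which divides a chromosome into runs of probes at one level, put all of chromosome 8 of tumour 244 in a single segment of 128.6 Mb at 0.33, the only one past the calling level of 0.2. Tumour 240 also had a single segment, at -0.03. Tumour 239 lay at 0.03 from 3.38 to 55.5 Mb (3018 probes) and at -0.16 from 55.5 Mb to the end (5110 probes), after a run of 23 probes at -0.12. Tumour 252 lay at -0.08 up to 8.11 Mb, at 0.065 from 8.12 to 28.4 Mb and at -0.115 from 28.4 Mb to the end. None of these levels in tumours 239 and 252 reached -0.2, so by the calling rule neither had a loss, and no tumour had a focal segment of 10 Mb or less past 0.6 or -0.5.

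**Figure D2:**
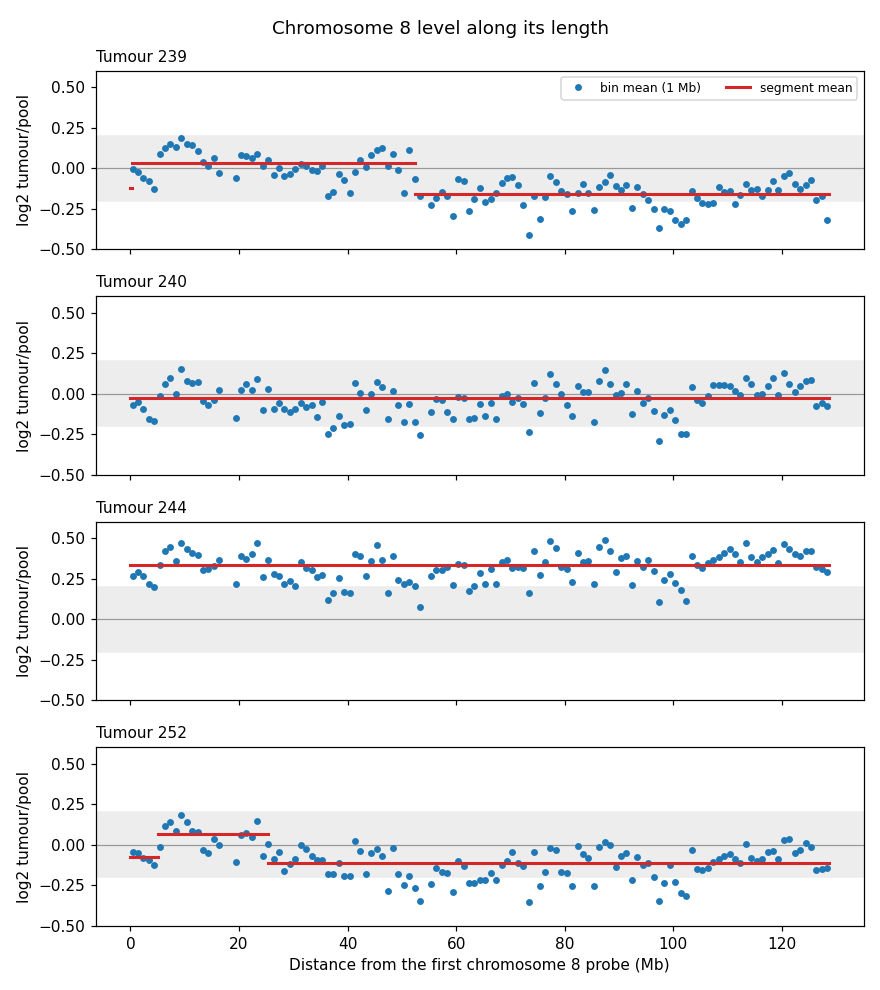
Mean log2 ratio of tumour over pool (vertical axes) in 1 Mb bins (blue points) along chromosome 8, by distance from its first probe in Mb, with segment means in red. The grey band spans the levels from -0.2 to 0.2 that were not called. Tumour 244 stays at one level of 0.33, while the right-hand part of tumour 239 lies at -0.16 and that of tumour 252 at -0.115.

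Bumps along the chromosome were shared by the tumours. The window from 10 to 20 Mb held the highest level of tumours 239 and 252, at 0.10 and 0.07, and was also above the chromosome's own mean in tumours 240 (0.03) and 244 (0.38). The window from 100 to 110 Mb lay lower than its neighbours in all 4, at -0.24, -0.09, 0.28 and -0.18 in tumours 239, 240, 244 and 252. Departures of single probes from their surroundings also repeated between arrays, with Pearson's r between 0.71 and 0.85 over 8148 probes for the 6 pairs of arrays, which share the pool, the probes and their base composition. Differences between tumours cancel what repeats on every array, the pool included, and were therefore segmented in the same way. The difference of tumours 240 and 244 was a single segment at -0.36, and over the 14 windows of 10 Mb it ranged only from -0.37 to -0.35.

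The other 5 pairs each had a step, at places that depended on which tumour was in the pair. In the 3 pairs with tumour 239 the level of that tumour dropped by 0.21, 0.21 and 0.22 between 56.1 and 58.2 Mb. In the 3 pairs with tumour 252 the level of the other tumour relative to it rose by 0.14, 0.12 and 0.12 between 45.4 and 45.6 Mb. Tumour 239 minus tumour 252 had both steps, at 0.04 up to 45.5 Mb, 0.18 over the 595 probes from 45.6 to 56.2 Mb and -0.04 from there to the end. The step of tumour 239 surrounds an interval without probes from 56.177 to 57.965 Mb, so it is placed no better than that interval allows, whereas the 3 placements of the step of tumour 252 lie within 156 kb. With lowess on intensity those placements spread further, to 44.1, 44.3 and 45.5 Mb. Taking segments of at least 500 probes whose levels differed by 0.1 or more, chromosome 8 had a step in 5 of 6 pairs, chromosomes 2 and 13 in 3 of 6 each, and the other 16 autosomes in none.

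**Figure D3:**
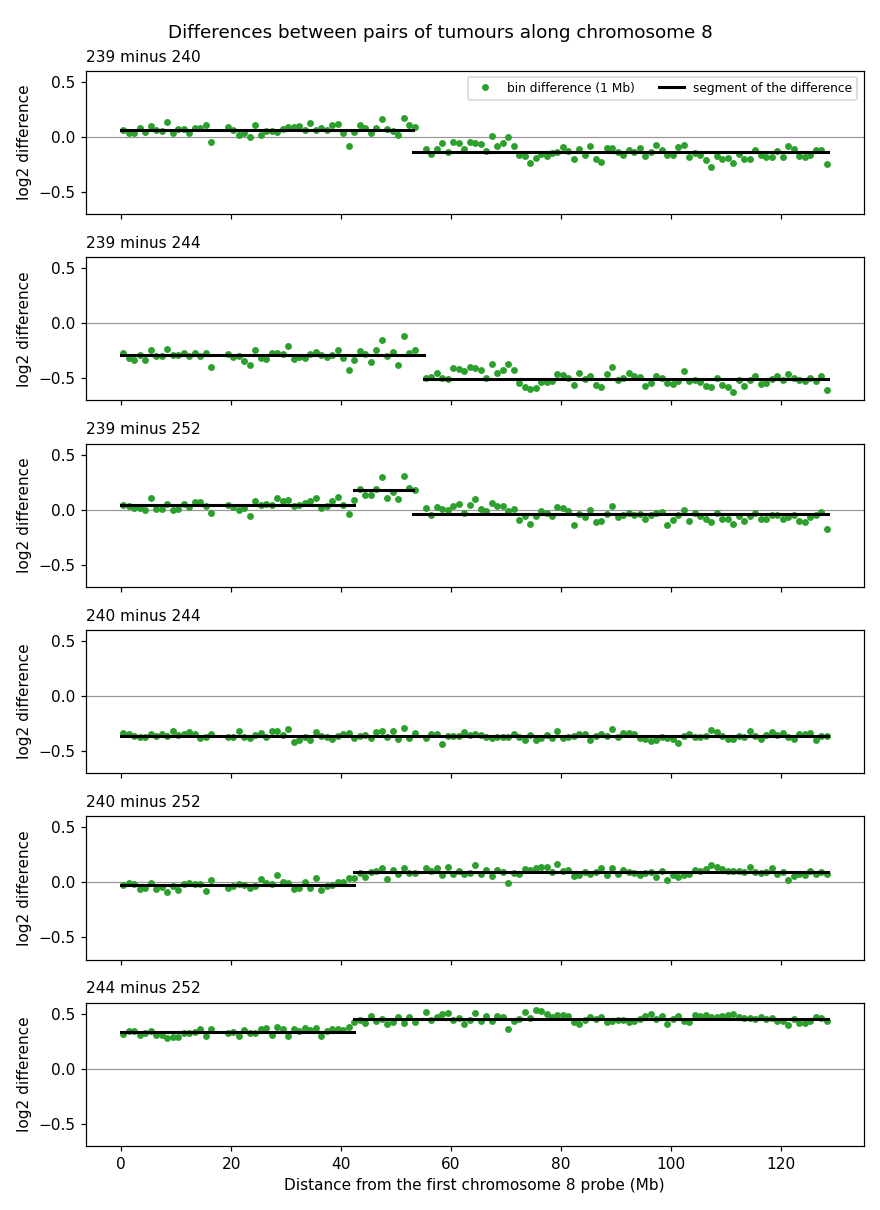
Difference in log2 ratio between pairs of tumours (vertical axes) in 1 Mb bins (green points) along chromosome 8, by distance from its first probe in Mb, with segments of the difference in black. The pair 240 minus 244 is flat at -0.36, the pairs with tumour 239 step near 53.01 Mb from the first probe and the pairs with tumour 252 near 42.3 Mb.

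The probes next to the steps are shown as placed in 240 minus 252 and 239 minus 240. They are given as in the scanner files, in lower case and without capitals since no part of them is singled out, and the files do not state their strand. The first pair flanks the step of tumour 252 in 240 minus 252, at chr8:45407498-45407557 and chr8:45437807-45437866, where neither probe has a gene name. The second pair flanks the step of tumour 239 in 239 minus 240, at chr8:56145192-56145251, within the neuronal membrane glycoprotein gene Gpm6a, and at chr8:56153332-56153391, which has no gene name. The probe before each step ends a stretch compared below. The next stretch starts beyond the probe shown after the step, at 45.6 Mb for tumour 252 and 58.2 Mb for tumour 239.
Before the step of tumour 252: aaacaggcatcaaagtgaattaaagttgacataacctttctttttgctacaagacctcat
After the step of tumour 252: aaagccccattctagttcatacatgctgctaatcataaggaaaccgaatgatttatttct
Before the step of tumour 239: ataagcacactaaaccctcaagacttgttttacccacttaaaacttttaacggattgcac
After the step of tumour 239: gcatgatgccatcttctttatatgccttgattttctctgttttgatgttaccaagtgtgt

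The 50 probes on each side of these steps gave a local reading. After the first probe beyond the step of tumour 252, the next 50 probes of that tumour averaged -0.17, against 0.03 over the 50 before it. The same 50 and 50 probes averaged 0.01 and -0.01 in tumour 239. They averaged -0.07 and 0.03 in tumour 240 and 0.27 and 0.41 in tumour 244, so these tumours too were lower beyond that point, by smaller amounts. Beyond the last probe before the step of tumour 239, the next 50 probes averaged -0.24 and the 50 before it -0.09 in that tumour, whereas the later 50 were the higher ones in tumours 240 (-0.14, against -0.19) and 244 (0.23, against 0.16). In tumour 252 both were at -0.29 and -0.28.

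The steps divide the chromosome into a proximal stretch up to 45.4 Mb (2490 probes, 239 gene names), a middle stretch from 45.6 to 56.1 Mb (594 probes, 49 names) and a distal stretch from 58.2 Mb on (5057 probes, 633 names). Since the boundaries were taken from these values, the stretches are described without a test. The distal stretch averaged -0.16 in tumour 239, against 0.03 over the proximal stretch. In tumour 252 the distal and proximal means were -0.115 and -0.01. The distal stretch lay at -0.02 in tumour 240 and 0.34 in tumour 244, against -0.04 and 0.32 proximally. Distal minus proximal was thus -0.19, 0.02, 0.02 and -0.10 in tumours 239, 240, 244 and 252, with tumours 239 and 252 below and tumours 240 and 244 slightly above 0.

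The middle stretch is where tumours 239 and 252 parted. It lay at 0.04 in tumour 239, 0.01 above that tumour's proximal level, and at -0.14 in tumour 252, a difference of -0.12 from its proximal level. In tumours 240 and 244 the middle stretch differed from the proximal one by -0.01 each. In copies per cell, with the array centre set to 2, the distal stretch amounted to 1.79 in tumour 239 and 1.85 in tumour 252, and to 1.97 and 2.54 in tumours 240 and 244. Mean probe GC content was 36.8% distally and 36.7% proximally. Over the 126 bins of 1 Mb, level and probe GC had Pearson's r of 0.12, 0.34, 0.33 and 0.27 in tumours 239, 240, 244 and 252. With a correction on GC, distal minus proximal was -0.20, 0.005, 0.02 and -0.11 in the same order. The difference between the corresponding ends of the other 18 autosomes, cut at the same fractions of their length, was smaller in size than on chromosome 8 in tumours 239 and 252, where chromosome 8 ranked 1 of 19. Those fractions were set by the steps of these tumours on chromosome 8. A high rank in them was therefore favoured in advance and is given as a description only. In tumours 240 and 244 it ranked 11 and 7.

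Single 1 Mb bins average the same probes and are a finer description of these levels. All 126 bins of tumour 244 lay above 0, between 0.07 and 0.49 with a median of 0.32, and 114 of them reached 0.2. In tumour 239, 28 of 126 bins lay above 0, in tumour 240, 45, and in tumour 252, 19. These shares were 22.2%, 35.7% and 15.1%, against 42.0%, 43.4% and 46.9% of the bins on the other autosomes of these tumours. In tumour 244 the share on the other autosomes was 47.6%. The 73 distal bins of tumour 239 were all below 0, with a median of -0.15, whereas 20 of its 40 proximal bins were (median 0.00). Of the distal bins of tumour 252, 68 of 73 were below 0 (median -0.11), against 26 of 40 proximal ones (median -0.04). Relative to tumour 240, tumour 239 was lower in 72 of 73 distal bins, 0 of 10 middle bins and 3 of 40 proximal bins. The boundaries were drawn from such differences between tumours, so a contrast between the stretches was favoured in advance and the counts are a description only. Within the distal stretch the gap of tumour 239 to tumour 240 was smaller from 60 to 70 Mb (-0.08) than from 110 to 120 Mb (-0.19).

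Tested over the 4 tumours with limma on all 2541 bins of the genome (Benjamini-Hochberg at 0.05), 0 of the 126 chromosome 8 bins passed above 0, against a background of 4.6% of all bins, and 0 passed below 0, against 8.5%. At an unadjusted p below 0.05 there were 6 above and 1 below, and limma with robust moderation also called 0. Without tumour 244, 8 bins passed above 0, all proximal and starting between 9 and 26 Mb, and 34 passed below 0, of which 23 were distal and 8 proximal. In that fit 12.2% of all bins passed above 0, against which chromosome 8 had 6.35%, and 23.2% passed below 0, against which it had 27.0%.

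Genes were tested over the same tumours by their mean over probes. Of the 921 chromosome 8 names, 120 (13.03%) passed above 0 and 61 (6.62%) below 0 in limma with adjustment over all 18702 names. The background was 17.6% of all names above 0 and 15.1% below 0, so with all 4 tumours chromosome 8 had fewer calls than the genome in both directions. Of the 325 names with a single probe, 50 (15.4%) passed above and 41 (12.6%) below 0, against 22.8% and 20.3% of all names with a single probe. Of the 106 names with 10 or more probes, 5 (4.72%) passed above and 0 below, against 8.71% and 7.79% of all such names, so calls thinned out with probe number on chromosome 8 as over the genome. Probe effects that repeat on every array are not part of the spread in this test. Without tumour 244 the counts were 77 above, all of them among the 120, and 178 below, which included 57 of the 61. The share above 0 was then 8.36%, against 14.4% of all names, and the share below 0 was 19.3%, against 12.4%, so without tumour 244 chromosome 8 had more calls below 0 than the genome.

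The relation between the tumours was steadier than the level against the pool. Tumour 244 was higher than the mean of the other 3 tumours in 917 of 921 names and in all 106 names with 10 or more probes, where this difference ranged from 0.17 to 0.58 with a median of 0.40. Among the 265 distal names with at least 3 probes, the median was -0.14 in tumour 239, -0.01 in tumour 240, 0.35 in tumour 244 and -0.10 in tumour 252. Among the 118 proximal names it was 0.09, 0.00, 0.38 and 0.03. Values below 0 were seen in 227 of 265 distal and 37 of 118 proximal names in tumour 239, and in 179 of 265 and 48 of 118 in tumour 252. In tumour 240 they were seen in 137 of 265 and 56 of 118. These names are read on the probes that set the stretches, so the counts by stretch are a description only.

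**Figure D4:**
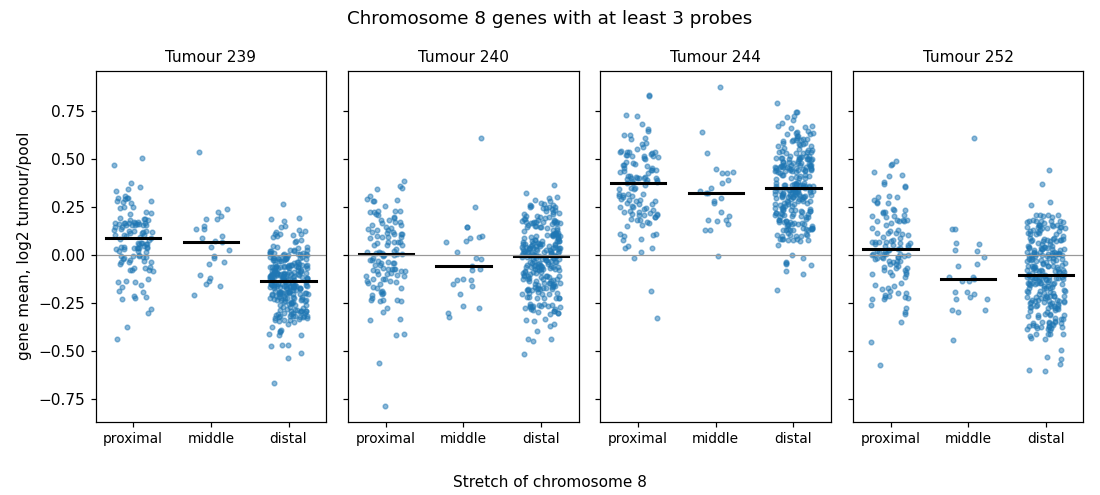
Mean log2 ratio of tumour over pool (vertical axis) of chromosome 8 genes with at least 3 probes, by stretch, in each tumour. Each point is a gene and each black line a median; the distal medians are -0.14, -0.01, 0.35 and -0.10 in tumours 239, 240, 244 and 252, and the proximal ones 0.09, 0.00, 0.38 and 0.03.

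Genes on either side of the steps, named here by position after the steps were seen, followed the stretches in part. Vegfc, a growth factor of lymphatic vessels at 55.2 Mb, was 0.17 higher in tumour 239 than in tumour 240 (0.04 and -0.12). Gpm6a, the last gene before the interval without probes, was also 0.17 higher (-0.11 and -0.27; 19 probes). Neil3, a DNA glycosylase gene before Vegfc, did not follow, at 0.23 in tumour 239 and 0.25 in tumour 240 on 5 probes. Beyond it Glra3, a glycine receptor subunit, was lower in tumour 239 than in tumour 240 by a difference of -0.085 (-0.19 and -0.11), and the long gene Galntl6 by -0.09 (-0.16 and -0.07; 110 probes). On the side of tumour 252, Fat1, which encodes an atypical cadherin and lies first after that step, gave 0.06 in tumour 252, against 0.15 in tumour 240. Before that step, Mtus1, which encodes a microtubule-associated protein, gave -0.26 in tumour 252, against -0.33 in tumour 240. Single genes vary more than the step of tumour 252, and of its neighbours Pdgfrl (-0.21 in tumour 252, against -0.12 in tumour 240) and 2810404M03Rik (-0.30, against -0.20) before the step and Fam149a (-0.23, against -0.27) after it went the other way. Beyond it Sorbs2 (-0.22, against -0.20; 32 probes) and Snx25 (0.13, against 0.145) barely differed.

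Genes with a reported role in restraining tumours were read on 26 of 27 listed members. None passed above or below 0 (0 of 26 in each direction), where 17.6% and 15.1% of all names did. Of the 26, 23 had at least 3 probes, and calls are rarer on such names. The shares above and below 0 among them were 9.56% and 2.21% on chromosome 8, and 12.8% and 10.7% over the genome. The list's median over tumours was 0.07, against 0.06 for all chromosome 8 names and 0.02 for all names tested. By tumour the median was -0.06, -0.03, 0.32 and -0.06 in tumours 239, 240, 244 and 252, and all 26 lay above 0 in tumour 244, against 10, 12 and 9 in the others. Csmd1, a very large gene of a complement-control protein, is proximal and gave 0.04, -0.05, 0.31 and -0.03 on 165 probes. The distal and likewise very large Wwox, an oxidoreductase gene at a fragile site, gave -0.13, 0.07, 0.40 and -0.06 on 90 probes. In tumour 239 Wwox was therefore lower and Csmd1 higher than in tumour 240, as their stretches were. Cdh13, a cadherin without a transmembrane domain, gave -0.06, 0.13, 0.45 and -0.01 on 103 probes. Inpp4b, a phosphatase that limits PI3K signalling, gave -0.26, -0.12, 0.25 and -0.24 on 69 probes. Zfhx3, a large homeobox transcription factor gene, gave -0.15, 0.01, 0.33 and -0.12 on 25 probes.

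Dlc1, a RhoGAP gene of the proximal stretch first described as deleted in liver cancer, gave -0.00, -0.24, 0.18 and -0.19 in tumours 239, 240, 244 and 252 on 25 probes (mean -0.06 ± 0.19, SD, n = 4; limma adjusted p = 0.582), and its mean was 0.03 under normexp. It was higher than 0 only in tumour 244. Cdh11, another cadherin, was among the 5 lowest names with at least 5 probes, at -0.30, -0.28, 0.09 and -0.41 (mean -0.23 ± 0.22, SD, n = 4). A single one of its 16 probes was not well above background, and on probes that were, its mean was 0.01.

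Growth signalling and cell cycle genes were read on 23 of 29 listed members, of which 5 passed above 0 and 2 below, beside 17.6% and 15.1% of all names. The 5 were Gas6, a ligand of the TAM receptor kinases, Mcm5, a subunit of the replicative helicase, Eif4ebp1, a brake on translation, Tfdp1, the partner of E2F factors, and Ikbkb, a kinase that activates NF-kappaB. Gas6 averaged 0.65 on 2 probes and Ikbkb 0.20 on 5. Maf, a transcription factor, was among those below, at -0.32 on 1 probe. The better covered members gave no call: Insr, the insulin receptor, gave -0.07, -0.20, 0.08 and -0.23 in tumours 239, 240, 244 and 252 on 14 probes, and Plcg2, a phospholipase C, gave -0.15, 0.06, 0.40 and -0.05 on 17. Nsd3, a histone methyltransferase gene next to Fgfr1, gave 0.08, 0.11, 0.53 and 0.23 on 13 probes (mean 0.24 ± 0.20, SD, n = 4; limma adjusted p = 0.064), and -0.02 under normexp. Nrg1, an ERBB ligand, gave 0.23, 0.05, 0.35 and -0.01, Kat6a, a histone acetyltransferase, gave 0.04, -0.08, 0.32 and 0.02, and Vegfc gave 0.04, -0.12, 0.30 and -0.19. The list's median was 0.07.

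Hepatocyte genes were read on 18 of 22 listed members, with 2 passing above and 3 below 0 and a median of 0.03. The shares over all names were 17.6% and 15.1%, so the count below 0 was near the background. Slc7a2, a transporter of cationic amino acids, gave -0.44, -0.78, -0.33 and -0.57 in tumours 239, 240, 244 and 252 on 6 probes, below 0 in 4 of 4 (mean -0.53 ± 0.20, SD, n = 4; limma adjusted p = 0.00386). It lies in the proximal stretch, whose mean was 0.03, -0.04, 0.32 and -0.01, and 1 of its probes was below -1 in every tumour. Atp7b, the copper exporter of hepatocytes, passed above 0 at 0.13, 0.12, 0.41 and 0.27 on 7 probes (mean 0.23 ± 0.14, SD, n = 4; limma adjusted p = 0.0374). It missed the threshold without any one tumour, and with mode centring, normexp or lowess. The other called members were Hpgd above 0, a prostaglandin dehydrogenase gene, and Gcdh and Klkb1 below 0, which encode glutaryl-CoA dehydrogenase and plasma prekallikrein. Each of these rested on 1 or 2 probes.

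Acsl1, which activates long-chain fatty acids, gave 0.14, 0.02, 0.27 and 0.06, and Asah1, an acid ceramidase, gave 0.30, 0.11, 0.51 and -0.01. Fgl1, a secreted liver protein, gave -0.16, -0.21, 0.21 and -0.20, and Gpt2, an alanine aminotransferase, gave -0.19, -0.27, 0.16 and -0.36. Neither mean differed from 0 at the threshold. Tat, the tyrosine aminotransferase gene, had 1 probe, with -0.26, -0.08, 0.04 and -0.11 (mean -0.10 ± 0.13, SD, n = 4; limma adjusted p = 0.270), and its mean was 0.14 under normexp.

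Antioxidant genes were thinly covered. No probe named Hmox1, Nqo1, Prdx2 or the metallothioneins Mt1 to Mt4, so 3 of 10 listed members were read. Gsr, glutathione reductase, gave 0.07, 0.01, 0.38 and 0.04 in tumours 239, 240, 244 and 252 on 4 probes. Cyba, a subunit of the phagocyte oxidase, passed above 0 on 1 probe (mean 0.38), and 0 of the 3 passed below 0 (17.6% and 15.1% over all names). The p53-related list had no probe for Gdf15, and of its 6 members read, 2 passed above 0 and 0 below, with the same shares over all names. These were Ckap2, a mitotic spindle protein gene, at 0.81 on 2 probes and Cdkn2aip, an interactor of ARF, at 0.35 on 1. Brd7, a bromodomain cofactor of p53, had 3 probes, at -0.02, 0.21, 0.51 and 0.20, and its mean of 0.23 became -0.33 under normexp.

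Immune and cell death genes were read on 13 of 16 listed members, with 0 above and 1 below 0, against 17.6% and 15.1% of all names. The 1 was Msr1, the macrophage scavenger receptor, at -0.38, -0.56, -0.19 and -0.45 in tumours 239, 240, 244 and 252 on 6 probes (mean -0.39 ± 0.16, SD, n = 4; limma adjusted p = 0.00724). As in Slc7a2, 1 of its probes lay below -1 in every tumour. Il15, a cytokine of the distal stretch, gave -0.31, -0.29, 0.13 and -0.44, and Irf2, an interferon regulator of the middle stretch, gave 0.09, -0.02, 0.34 and -0.14. Irf2 lay below 0 in tumours 240 and 252, and in tumour 239 above it. Ido2, a tryptophan dioxygenase, gave 0.12, 0.07, 0.37 and 0.05, Plat, the tissue plasminogen activator, gave 0.04, -0.17, 0.25 and -0.07, and Nod2, a sensor of bacterial cell walls, gave -0.04, 0.06, 0.36 and -0.04.

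Gene families that differ between mouse strains stood out in no single direction. Of 23 Ces, Nat and defensin names read, 3 passed above and 4 below 0, near the 17.6% and 15.1% of all names, with a median of -0.00. The carboxylesterases, which hydrolyse drugs and lipids, lie in the distal stretch. Among those called, Ces1f averaged -0.55 on 2 probes, Ces1b -0.40 on 1 and Ces4a 0.35 on 2. None of the following, with at least 3 probes, passed the test. Ces1d gave -0.39, -0.45, 0.08 and -0.41 in tumours 239, 240, 244 and 252, Ces1e gave -0.16, -0.14, 0.22 and -0.15, and Ces1g gave -0.41, -0.18, 0.10 and -0.35. Ces5a gave -0.08, 0.20, 0.50 and -0.06, Ces1c gave -0.32, 0.10, 0.36 and -0.10, and Ces1a gave -0.01, -0.08, 0.32 and -0.23, all on 3 probes. Tumour 244 was the highest of the 4 in each.

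The highest and lowest names with at least 5 probes are given as a description, having been picked by their mean. Tmco3, a putative ion exchanger, was highest, at 0.25, 0.36, 0.63 and 0.47 in tumours 239, 240, 244 and 252. Vac14, a scaffold of phosphoinositide synthesis, Rab11fip1, an effector of RAB11, Zc3h18, a zinc-finger gene of RNA processing, and Tubgcp3, a subunit of the gamma-tubulin complex, averaged 0.36, 0.35, 0.35 and 0.32. Under normexp the Zc3h18 mean was -0.20, that of Tubgcp3 -0.00 and that of Tmco3 0.05, and those of Rab11fip1 and Vac14 were 0.05 and 0.18, past the threshold no longer (limma adjusted p = 0.682 and 0.146). The lowest after Slc7a2 and Msr1 was Otud4, a deubiquitinase, at -0.38, -0.34, 0.08 and -0.56 (mean -0.30). Tumour 244 was above the other 3 tumours in these low genes as in the high ones.

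Blocks of listed genes whose human counterparts share a chromosome arm were compared over all probes from their first to their last listed gene. Unlisted genes in between, such as Atp7b and Ckap2 in the 8p-like block, were averaged too, and their human arm was not checked. The large 8p-like block, from Csmd1 to Mtus1 (1540 probes), averaged 0.00, -0.06, 0.30 and -0.04 in tumours 239, 240, 244 and 252 (mean 0.05 ± 0.17, SD, n = 4). The 16q-like block, from Siah1a to Fanca (2452 probes), averaged -0.16, 0.00, 0.36 and -0.09 (mean 0.03 ± 0.23, SD, n = 4). Tumour 239 was lower than tumour 240 over the 16q-like block and higher over the 8p-like block. The 4q-like block from Fat1 to Cpe, which holds the step of tumour 239, averaged -0.06, -0.06, 0.29 and -0.16, and that from Ednra to Il15 averaged -0.14, -0.00, 0.36 and -0.12. The 13q-like block from Irs2 to Rasa3 was above 0 in all 4, at 0.16, 0.07, 0.41 and 0.13 (mean 0.19 ± 0.15, SD, n = 4), with a mean of 0.12 without tumour 244 and 0.11 with normexp. This block lies within the window from 10 to 20 Mb, described above as a bump shared by the tumours. The short 1q-like block from Galnt2 to Disc1 averaged -0.09, 0.08, 0.42 and 0.03. The 19p-like blocks, from Pik3r2 to Klf2 and from Prkaca to Nfix, averaged -0.11, -0.05, 0.32 and -0.11, and -0.08, 0.09, 0.40 and -0.02. Each of the 8 blocks was above the mean of the other 3 tumours in tumour 244, by 0.29 to 0.45. Without tumour 244 the 8p-like and 16q-like means were -0.03 and -0.08. With normexp the mean of the block from Prkaca to Nfix was -0.09, against 0.10 before. The normexp means of the 16q-like block, of the block from Pik3r2 to Klf2 and of the 4q-like blocks from Fat1 and from Ednra also turned below 0. They were -0.02, -0.03, -0.02 and -0.04. The 8p-like, 13q-like and 1q-like means stayed above 0 with normexp, at 0.03, 0.11 and 0.02.

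Some single probes lay far from 0 in every tumour with no like neighbours. At or below -1 in all 4 tumours were 22 chromosome 8 probes (0.27%), against 0.635% of autosomal probes, and at or above 1 in all 4 were 4 (0.0491%), against 0.0824%. No 2 of the low probes were neighbours along the chromosome, and the closest lay 376 kb apart. Of the 22, 20 were well above background in both colours and 12 lay in a named gene. The probe in Cdh11 mentioned above was one of the other two, and its ratios are not read here. The lowest on average of the 20, at chr8:100226634-100226693 and without a gene name, gave -2.26, -2.37, -2.19 and -2.59 in tumours 239, 240, 244 and 252 and had neighbours at a mean of -0.19 over 10 probes. The highest on average of the 4 high probes, in Tusc3, which encodes a subunit of the oligosaccharyltransferase, at chr8:40163516-40163575, gave 1.31, 1.65, 1.62 and 1.62 among neighbours at -0.01. Both sequences are shown as examples of a ratio far from 0 on a single probe, and each has 22 G or C among its 60 bases.
Low probe: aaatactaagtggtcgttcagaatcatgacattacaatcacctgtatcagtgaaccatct
Tusc3 probe: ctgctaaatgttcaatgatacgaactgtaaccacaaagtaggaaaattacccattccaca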

How the data were processed

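Genomic DNA of 4 liver tumours and of 1 pool of normal livers was hybridised to 2-colour Agilent mouse CGH arrays, 1 array per tumour. The submitters' processing notes name Agilent Feature Extraction 12.0.0. Per the file headers, the deposited intensity of each colour had been background-subtracted, detrended and given a linear dye normalisation, and raw mean and background intensity stood beside it. The deposited log10 ratio was red over green, hence tumour over pool. The authors' table of values repeated this log10 ratio without centring. Other deposited columns held spot flags, per the file headers, and positions in mm9. A single slide and scan held the 4 arrays, per the file headers, so no batch could be tested.

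Control and outlier spots were dropped, repeated spots of a probe averaged, and the log2 ratio of tumour to pool intensity centred on the autosomal median. On chromosome 8, the share of spots well above background lay between 98.7% and 99.9% over arrays and colours, and 8148 of 8152 probes had a value on all arrays. Neighbouring probes differed by noise with an SD of 0.25 in tumour 239, 0.31 in tumour 240, 0.34 in tumour 244 and 0.36 in tumour 252. The number of arrays limits the precision.

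Circular binary segmentation (own implementation) kept splits past the 99th percentile of 200 shuffles, with at least 5 probes and merging of neighbours closer than 0.1. Segments at or past 0.2 or -0.2 counted as gained or lost levels. An intercept-only fit in limma 3.58.1 (R 4.3.3) tested genes, and 1 Mb bins of at least 5 probes, with Benjamini-Hochberg adjustment at 0.05. Means were tested by exact sign-flip permutation. The segmentation and limma steps were tested on simulated data. Other steps used Python 3.11.15, numpy 2.4.6, pandas 2.3.3 and numba 0.67.0.

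Of 921 names, 784 matched a current and 40 an older symbol in a RefSeq table of GRCm38.p6, used only for names, and 97 kept the files' name. Exons and introns were not annotated here. Named were list members with at least 3 probes (at most 6 per list, by probe number), Tat, Hmox1, Nqo1 and Gdf15, and the 5 highest and 5 lowest names with at least 5 probes. Members of the lists outside this rule, and genes beside the steps, were named after their values were seen. The members, lists, blocks and tests were chosen with earlier results of these data known. Alternatives covered centring, background correction, probe filter, lowess, the value table, bin size, segment size, thresholds and each tumour left out. Differences between tumours, the 3 stretches and a GC correction were added after seeing the data. The values of 1 gene are not reported here.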

Additional observations from a re-analysis of the deposited data

Results flagged for a closer look

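Among 60 sets of 4 tumour values, 9 had a tumour whose gap to its nearest neighbour exceeded Dixon's 95% critical value for 4 samples, taken as a share of the range. Chance flags about 1 in 20 sets, and the sets overlap, since they are read on the same probes. In 8 of the 9 the tumour apart was 244. The chromosome 8 mean was 0.33 in tumour 244, against -0.09 to -0.03 in the other 3, its difference from the other autosomes was 0.36, against -0.08 to -0.02, and its difference from chromosomes 2, 5 and 11 was 0.24, against -0.11 to -0.07. The 19p-like block from Pik3r2 to Klf2 was at 0.32, against -0.11 to -0.05. Of 41 genes, Gsr (0.38, against 0.01 to 0.07), Fgl1 (0.21, against -0.21 to -0.16), Ces1d (0.079, against -0.45 to -0.39) and Ces1e (0.22, against -0.16 to -0.14) had tumour 244 apart. The remaining set was the distal minus the middle stretch, at -0.20 in tumour 239, against 0.02 to 0.03 in the others, with boundaries that were taken from these data.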

How the results depend on the processing

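Under the 7 other settings tried for it, the mean of chromosome 8 lay between 0.23 and 0.34 in tumour 244, above the other tumours throughout. It lay between -0.14 and -0.07 in tumour 239, between -0.09 and -0.02 in tumour 240 and between -0.14 and -0.08 in tumour 252. Normexp put tumours 239, 240 and 252 at -0.14, -0.09 and -0.14, against -0.09, -0.03 and -0.09 in the main setting. Those shifts were about as large as the differences among these tumours. Tumour 244 had 100% of its chromosome 8 probes in gained segments under all 9 settings, thresholds of 0.1 and 0.3 included. The threshold of 0.3 was tried only with median centring, and with mode centring the mean of tumour 244 was 0.23. The steps of tumours 239 and 252 were found in all 3 pairs under the main setting and the 6 other settings tried. They lay at 56.1 to 58.2 Mb for tumour 239 and at 44.1 to 45.6 Mb for tumour 252. Distal minus proximal lay between -0.20 and -0.19 in tumour 239 and between -0.14 and -0.10 in tumour 252. Mode centring shifts a whole array, so it could move neither the steps nor these differences. Lost segments held 62.0% of chromosome 8 probes in tumour 239 with normexp and 63.0% at a threshold of 0.1, there with the 23 probes at the proximal end. In tumour 252 they held 81.2%, from 28.4 Mb to the end, at 0.1 alone.

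The mean over tumours was -0.01 with normexp (-0.0082), and leaving out one tumour gave -0.067 to 0.074. Chromosome 8 minus the other autosomes ranged from -0.056 to 0.093 when one tumour was left out, and minus chromosomes 2, 5 and 11 from -0.091 to 0.026. Bins above 0 numbered 0 to 8 and bins below 0 numbered 0 to 34 when one tumour was left out, with the highest counts without tumour 244. Over the genome, bins above 0 then numbered 0 to 310 and bins below 0 numbered 0 to 590, also highest without tumour 244. Genes above 0 numbered 60 to 139 and genes below 0 numbered 20 to 178 in the same way. Genes below 0 were 122 with normexp, and with at least 3 probes per gene the counts were 40 above and 10 below, since fewer genes were tested.

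Of 491 values of 41 named genes under alternatives, 411 kept direction and side of the threshold, 16 lost a call, 22 gained one and 42 turned sign. With normexp the means that turned were 0.0043 for Insr, -0.0044 for Tubgcp3, -0.0077 for Kat6a, -0.016 for Nsd3, 0.026 for Dlc1, 0.15 for Fgl1, -0.13 for Vegfc, 0.051 for the Ensembl transcript among the 5 lowest names, 0.094 for Gpt2, -0.33 for Brd7, 0.25 for Ces1a, -0.29 for Ces1c, -0.12 for Zfhx3, 0.14 for Tat and -0.20 for Zc3h18. With mode centring they were -0.016 for Plat, -0.021 for Vegfc, -0.019 for Ces1c and -0.011 for Zfhx3. With lowess they were -0.040 for Vegfc, 0.034 for Ces1a, -0.072 for Ces1c and -0.022 for Zfhx3. With the GC correction they were -0.011 for Plat and -0.019 for Ces1c, and on probes well above background 0.0030 for Ces1a and 0.0074 for Cdh11. Leaving out one tumour, means that crossed 0 ranged from -0.013 to 0.11 for Csmd1, -0.068 to 0.073 for Plat, -0.0093 to 0.12 for Kat6a, -0.023 to 0.13 for Irf2, -0.092 to 0.072 for Vegfc, -0.0085 to 0.13 for Nod2, -0.11 to 0.077 for Ces1a, -0.11 to 0.12 for Ces1c, -0.087 to 0.072 for Zfhx3, -0.038 to 0.14 for Wwox and -0.046 to 0.14 for Plcg2. The cause was not tested. No paired analysis was possible because all 4 tumours form 1 group. With 4 arrays and no normal-against-normal array, levels near 0 depend on the centring, which alone moved tumour 244 by 0.105. Nearly all chromosome 8 spots were flagged as well above background, yet the gene means listed here moved with the background correction. The part of dim signal in this was not tested.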
